A study of Homo sapiens with 12 samples.

Results

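The mitochondrial carriers of the SLC25 family were described in TK6, an established line of human B lymphoblasts, after exposure to 3-methylcholanthrene (3-MCA). The members were all genes of the deposited count table whose symbol is SLC25A followed only by a number, 48 of 50006 rows. The 12 libraries came in 4 groups of 3, named here by the concentration of 3-MCA in the culture for 24 h. It was 0 in control, 0.0004 µg/mL for low, 0.04 µg/mL for medium and, at the top, 4 µg/mL for high. All groups were the same TK6 (IVGT) cells, grown in suspension and obtained from the JCRB Cell Bank, and 3-MCA was the only agent named. The sources used here give neither the vehicle nor whether the 3 libraries of a group were separate cultures. The p-values therefore rest on library-to-library spread, part or all of which may be technical.

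Carriers of this family are small membrane proteins, most of them in the inner mitochondrial membrane, which is otherwise closed to charged metabolites. They exchange ATP for ADP, import phosphate, and move carboxylates, amino acids, coenzymes, iron and acylcarnitines between the cytosol and the matrix. They are encoded in the nucleus, made in the cytosol and inserted into the inner membrane by the TIM22 machinery. 3-MCA is a polycyclic aromatic hydrocarbon that activates AHR, the aryl hydrocarbon receptor, a transcription factor which binds DNA with its partner ARNT at the core GCGTG.

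Promoter sequence is shown for the most abundant carrier, for the second, and for the carrier whose numbered row had the largest estimated increase in high 3-MCA, chosen after their values were seen. Each run is the 250 bases before the RefSeq transcription start on GRCh38.p14, plus strand, with the AHR-ARNT core on either strand (GCGTG or CACGC) in capitals. The windows lie at chrX:119468194-119468443 for SLC25A5, at chr12:98593436-98593685 for SLC25A3, and at chr9:128098257-128098506 for SLC25A25, where the start used lies inside the span that the count table gives to the gene.
SLC25A5: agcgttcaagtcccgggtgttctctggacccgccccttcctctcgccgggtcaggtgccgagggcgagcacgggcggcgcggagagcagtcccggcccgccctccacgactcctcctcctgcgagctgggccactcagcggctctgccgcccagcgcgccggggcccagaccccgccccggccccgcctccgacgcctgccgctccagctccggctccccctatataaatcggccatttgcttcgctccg
SLC25A3: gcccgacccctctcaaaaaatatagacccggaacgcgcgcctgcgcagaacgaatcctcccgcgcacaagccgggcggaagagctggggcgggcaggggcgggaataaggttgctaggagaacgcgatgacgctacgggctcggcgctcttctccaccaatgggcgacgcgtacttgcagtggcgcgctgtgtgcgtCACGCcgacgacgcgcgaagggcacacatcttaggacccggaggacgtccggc
SLC25A25: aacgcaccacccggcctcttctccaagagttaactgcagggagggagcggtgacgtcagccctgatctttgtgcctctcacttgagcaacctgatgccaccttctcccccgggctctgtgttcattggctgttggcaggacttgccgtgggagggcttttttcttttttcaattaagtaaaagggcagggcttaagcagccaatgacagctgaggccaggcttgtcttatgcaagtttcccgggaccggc

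The core occurs 1 time in the SLC25A3 run and 0 times in those of SLC25A5 and SLC25A25. Windows of 300 bases, from 250 before to 50 after the start, were at hand for 40 of the 48 carriers, and 31 of them (77.5%) held GCGTG on either strand, against 36.5% of all 35116 windows and 43% of 22199 windows of coding genes. The carrier windows averaged 65.6% G and C, against 60.9% in coding genes, and the part of base composition in the difference was not tested. The E-box CACGTG stood in 17.5% of the carrier windows, against 8.34% in coding genes. The CCAAT box stood in 47.5%, against 34.7%. Such matches only describe the letters in these windows.

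Library totals ran from 9163368 to 19841387 counts, so that 3 counts, used here as the limit of detection, came to 0.151 to 0.327 CPM (counts in proportion to the library total). The share of counts on mitochondrial 16S ribosomal RNA varied from 1.43% to 7.99%. It spanned 1.45% to 7.96% in high, 2.73% to 4.80% in medium and 1.46% to 7.99% in low, against 1.43% to 3.84% in control, and its difference between groups was not tested. Among single libraries, low replicate 3 (7.99%), high replicate 3 (7.96%) and high replicate 1 (5.52%) stood highest, while high replicate 2 had 1.45%. All 7 B cell markers examined passed the filter on low counts, with summed levels of 1973 to 2870 CPM over the libraries. Markers of T and NK cells summed to 3.93 to 8.42 CPM, those of myeloid cells to 1.94 to 6.51 CPM, and all 5 erythroid markers were at 0. Of these, NKG7 among the T and NK markers and CSF1R and ITGAM among the myeloid markers passed the same filter.

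TK6 cells expressed most of the family. Of 48 carriers, 35 reached 3 counts in every library, and the same number reached 10 counts. A further 8 (SLC25A2, SLC25A6, SLC25A12, SLC25A18, SLC25A34, SLC25A41, SLC25A47 and SLC25A48) had at least 1 count somewhere but missed 3 counts in some library. The other 5 (SLC25A21, SLC25A24, SLC25A27, SLC25A31 and SLC25A52) had 0 counts in all 12 libraries, which for each library allows a level of up to 0.151 to 0.327 CPM by counting error alone. That limit takes each count as independent, and it would be higher if both reads of a pair were counted. In TPM (counts divided by exon length and scaled to a common sum), 5 carriers averaged 100 or more in control, 21 were between 10 and 100, 9 between 1 and 10, and 13 below 1. Together the carriers took 0.237% to 0.302% of a library's counts. All these figures use the numbered rows only. SLC25A6 and SLC25A12 held nearly all of their counts on a second row of the same gene, its copy row, described further on. With the copy rows added, 37 carriers passed the filter on low counts.

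**Figure D1:**
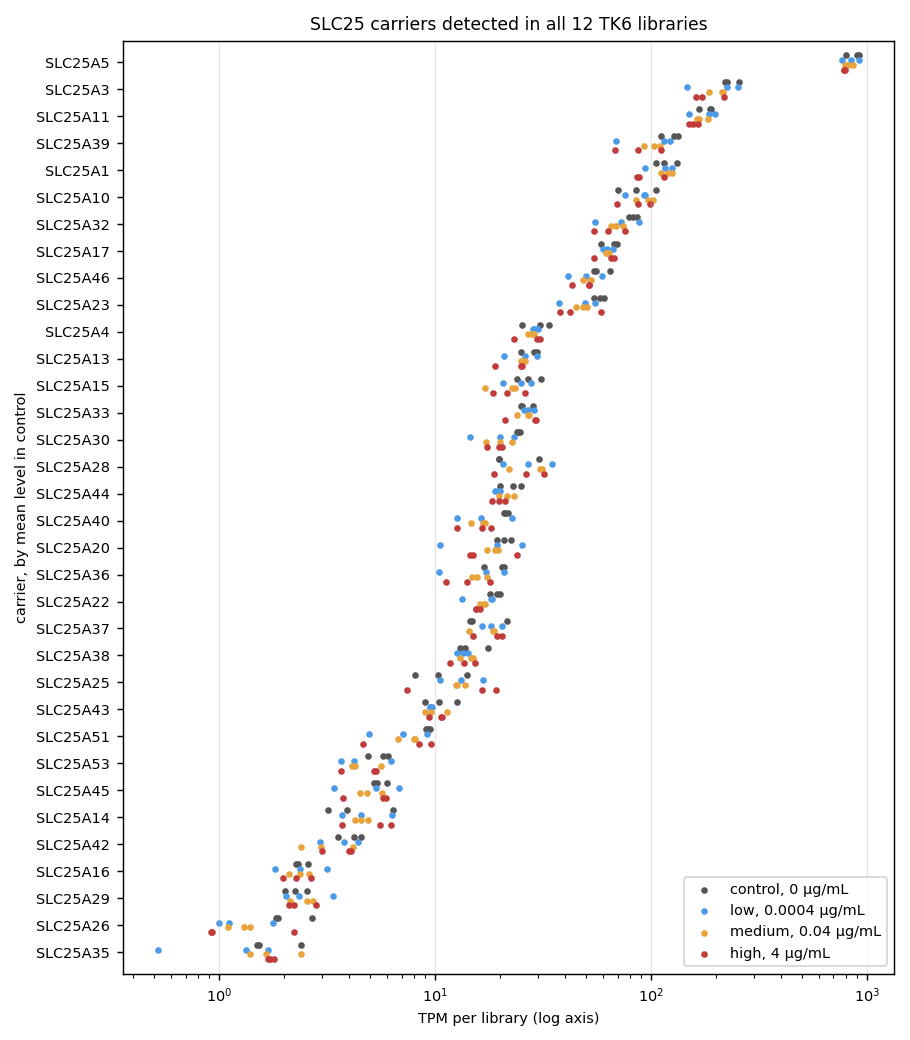
TPM (log axis) in each of the 12 libraries for 34 of the 35 carriers detected in all of them, ordered by their mean in control, with 1 point per library coloured by concentration. SLC25A5 lies above all other carriers in every library, from 763 to 922 TPM.

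The ADP/ATP translocases made up the largest share of carrier transcripts. SLC25A5 (ANT2, the form known from dividing cells; chrX:119468444-119471396, plus strand, GRCh38.p14) measured 922, 897 and 799 TPM in control, 847, 921 and 763 in low, 862, 792 and 822 in medium, and 782, 794 and 785 in high. It ranked first in 12 of 12 libraries. Its high values lay wholly below control in TPM, though not in CPM, and low and medium overlapped control. Of its exon bases, 14% are shared with the antisense gene SLC25A5-AS1, so part of its count may belong to that gene where strand was not used. SLC25A4 (ANT1, known from heart and muscle) averaged 29.9 ± 4.22 TPM in control (SD, n = 3). The ratio of SLC25A5 to SLC25A4 was 28.8 ± 4.68 in high, against 29.4 ± 2.08 in control. SLC25A31 (ANT4, known from testis) had 0 counts, and SLC25A6 (ANT3) is treated with its copy row further on. SLC25A4 and SLC25A5 together gave 39.9% ± 1.18 of the carrier TPM in control. The shares and ranks given here and below leave out the copy rows, and with them nearly all counts of SLC25A6.

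Among the phosphate carriers, SLC25A3, which imports phosphate for ATP synthesis and also carries copper (chr12:98593686-98606367, plus strand), came second in 11 of 12 libraries. Its level was 220, 257 and 224 TPM in control, 224, 252 and 146 in low, 185, 215 and 213 in medium, and 173, 218 and 162 in high. The 2 lowest values were in low replicate 3 and high replicate 3, the libraries with the most 16S RNA. High and medium lay wholly below control in TPM, though not in CPM, and low overlapped it. SLC25A5 and SLC25A3 together held 48.3% to 50.7% of all carrier TPM across the libraries. Of the calcium-regulated ATP-Mg/phosphate carriers, SLC25A23 averaged 57.8 ± 3.09 TPM and SLC25A25 10.8 ± 3.00 TPM in control, and SLC25A24 had 0 counts. SLC25A41, a further ATP-Mg/phosphate carrier, reached 0.81 ± 0.63 TPM.

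The carriers of di- and tricarboxylates held 3 of the 6 highest places and 17.0% ± 0.38 of the carrier TPM in control. SLC25A11, the 2-oxoglutarate/malate carrier (chr17:4937130-4940046, minus strand), measured 188, 190 and 167 TPM in control, 197, 186 and 150 in low, 167, 164 and 185 in medium, and 150, 166 and 156 in high. SLC25A1, which exports citrate (chr22:19175581-19178736, minus strand), measured 105, 131 and 114 TPM in control, 116, 126 and 94.1 in low, 111, 120 and 125 in medium, and 88.0, 115 and 86.2 in high. SLC25A10, the dicarboxylate carrier (chr17:81712284-81721012, plus strand), measured 105, 85.3 and 70.3 TPM in control, 93.3, 75.6 and 93.3 in low, 96.8, 84.8 and 102 in medium, and 86.7, 69.8 and 98.6 in high. The high values of SLC25A11 all lay below its control range in TPM, though not in CPM, and low and medium overlapped it. The groups overlapped in TPM for SLC25A1 and SLC25A10. SLC25A21, the oxodicarboxylate carrier, had 0 counts. Of the windows of 150 bases in SLC25A10 transcripts, 49.6% also occur in the annotated gene AC139530.2. Whether that gene overlaps SLC25A10 or lies elsewhere was not examined, nor was any effect on the counts.

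Of the amino acid carriers, 6 of 9 were detected in every library. In control the aspartate/glutamate carrier SLC25A13 (citrin) averaged 27.9 ± 2.55 TPM, the ornithine/citrulline carrier SLC25A15 27.3 ± 3.43 TPM, and the branched-chain amino acid carrier SLC25A44, a role known from mouse brown fat, 22.7 ± 2.51 TPM. The glutamate carrier SLC25A22 averaged 19.1 ± 1.04 TPM, against 0.38 ± 0.15 TPM for the other glutamate carrier, SLC25A18. SLC25A38, which carries glycine for heme synthesis, averaged 14.8 ± 2.43 TPM, and SLC25A29, a carrier of basic amino acids, 2.27 ± 0.26 TPM. The second ornithine carrier, SLC25A2, had 1 library with any count.

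Carriers of cofactors, nucleotides, iron and glutathione formed the largest group in number, and 13 of its 14 members were detected in every library. The glutathione carrier SLC25A39 (chr17:44319628-44324823, minus strand) measured 112, 134 and 128 TPM in control, 114, 122 and 68.5 in low, 92.9, 111 and 103 in medium, and 87.0, 111 and 68.4 in high. Its lowest values were again in low replicate 3 and high replicate 3. High and medium lay wholly below control in TPM, though not in CPM, and low overlapped it. SLC25A40, its close relative, was lower, and the ratio of SLC25A39 to SLC25A40 was 5.60 ± 0.45 in high, against 5.86 ± 0.55 in control. Next came SLC25A32, a carrier of FAD and folate, at 82.6 ± 3.47 TPM in control, and the peroxisomal cofactor carrier SLC25A17 at 65.4 ± 5.84 TPM. Of the windows of SLC25A32, 87.5% also occur in the annotated gene AC012213.5, whose position relative to SLC25A32 was likewise not examined.

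Further down this group, the pyrimidine nucleotide carriers SLC25A33 and SLC25A36 averaged 26.3 ± 1.97 and 19.3 ± 2.21 TPM in control. The iron carriers SLC25A28 (mitoferrin 2) and SLC25A37 (mitoferrin 1, known from erythroid cells) averaged 23.3 ± 6.12 and 17.0 ± 3.90 TPM, and their ratio was 1.39 ± 0.22 in high, against 1.37 ± 0.04 in control. The NAD carrier SLC25A51 reached 9.29 ± 0.17 TPM, while its near relative SLC25A52 had 0 counts. These relatives share 27 windows of 150 bases, 1.68% of those of SLC25A51 and 2.31% of those of SLC25A52. The coenzyme A carrier SLC25A42, SLC25A16, which is linked to coenzyme A, and the S-adenosylmethionine carrier SLC25A26 stood at 4.11 ± 0.50, 2.39 ± 0.17 and 2.13 ± 0.49 TPM in control.

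The carnitine/acylcarnitine carrier SLC25A20, which serves fatty acid oxidation, averaged 20.9 ± 1.55 TPM in control. In the remaining group of uncoupling-protein-like carriers and carriers with no substrate given here, the outer membrane protein SLC25A46, which acts in mitochondrial shape, was highest at 58.1 ± 5.36 TPM. The uncoupling-protein-like SLC25A30 and SLC25A14 averaged 24.3 ± 0.39 and 4.51 ± 1.67 TPM, and SLC25A27, a relative known from brain, had 0 counts. SLC25A43 reached 10.7 ± 1.86 TPM, SLC25A53 5.55 ± 0.60, SLC25A45 5.53 ± 0.40 and SLC25A35 1.81 ± 0.51, whereas SLC25A34 reached 0.16 ± 0.17. SLC25A47, known from liver, and SLC25A48 were at 0 in control. SLC25A35 shares 24.6% of its exon bases with RANGRF.

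Neighbours in the order of levels often changed places between libraries. Of the 34 neighbouring pairs among the 35 detected carriers, 6 kept the same order in all 12 libraries, and 9 had control ranges that did not overlap. SLC25A5 over SLC25A3, SLC25A11 over SLC25A39, SLC25A23 over SLC25A4, SLC25A33 over SLC25A30 and SLC25A51 over SLC25A53 met both criteria. Between SLC25A4 and SLC25A36, which are 10 places apart, control means differed only from 29.9 to 19.3 TPM. Summed over the family, carrier TPM averaged 2262 ± 125 for control, 2120 ± 237 for low, 2099 ± 27.0 for medium and 1967 ± 72.2 for high (SD, n = 3 each). The high libraries, at 1904 to 2046 TPM, lay wholly below the control libraries, at 2119 to 2347. Counts on mitochondrial genes took 18.5% to 23.1% of the high libraries, wholly above the 14.6% to 16.9% of the control libraries, and so the share separated these groups along with the carrier sum. With them left out of the denominator the sums were 3469 ± 89.8 TPM for control, 3416 ± 93.2 for low, 3394 ± 114 for medium and 3373 ± 53.8 for high, a calculation added after seeing the data. The high libraries, then at 3315 to 3422 TPM, overlapped the control libraries, at 3367 to 3536. In TPM, 9 of the 35 detected carriers lay wholly below control in high, against 17.0% of all genes tested, 11 in medium, against 12.8%, and 3 in low, against 6.65%. Above control lay 0 of these 35 carriers at each concentration, against 0.939% of genes in high, 1.83% in medium and 1.45% in low.

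SLC25A6 and SLC25A12 are listed on 2 rows each, and nearly all of their counts were on the copy row. SLC25A6 lies in the pseudoautosomal region shared by X and Y, and its X row held 2 counts in all, against 2316 on the Y row. The Y row measured 11.7, 8.13 and 8.06 CPM in control, 8.38, 7.77 and 10.5 in low, 9.49, 8.56 and 8.64 in medium, and 10.7, 60.6 and 9.98 in high. High replicate 2 stood far above all the other libraries, which lay close together. For the aspartate/glutamate carrier SLC25A12 (aralar), the row on chromosome 2 held 15 counts and the row on a patch or alternate contig 1754. That row measured 11.1, 11.6 and 10.5 CPM in control, 4.85, 19.2 and 5.60 in low, 14.5, 2.58 and 8.25 in medium, and 11.9, 20.5 and 24.5 in high. All 3 high libraries lay above the control libraries, as did those of 1.85% of all genes tested, while low and medium fell on both sides of them. The sources used here do not say how reads with several alignments were treated, so the low counts of these genes are not read as absence.

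**Figure D2:**
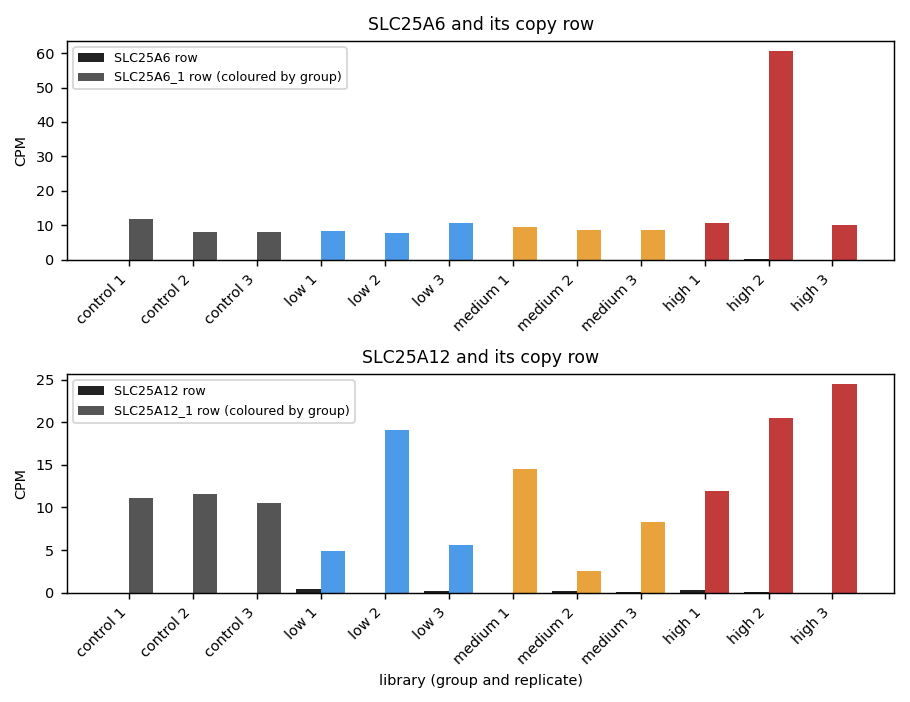
CPM of SLC25A6 and SLC25A12 in each library, with the bar of the numbered row in black and the bar of its copy row coloured by group. The copy row of SLC25A6 is at 60.6 CPM in high replicate 2, and the numbered rows are at or near 0 throughout.

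With both rows added, a step chosen after seeing the data, SLC25A6 had a log2 fold change of 1.62 ± 0.57 (SE) in high against control, with an unadjusted p of 0.0164 and an adjusted p of 0.810 in edgeR's quasi-likelihood test. Apart from high replicate 2, the high libraries, at 10.7 and 9.98 CPM, lay within the control range of 8.06 to 11.7 CPM. SLC25A12 had 0.85 ± 0.56, with an adjusted p of 0.810. Of 12 pseudoautosomal genes, picked after their values were seen, 12 had at most 2 counts on the X row, and 11 had more on the Y row. Over the libraries the Y row ran from 5.09 to 100 CPM for ASMTL and from 4.47 to 51.6 CPM for CD99, against 7.77 to 60.6 CPM for SLC25A6. The Y rows of the remaining genes stayed at or below 12.3 CPM. A wide range was thus not particular to SLC25A6, and the library highest for ASMTL and CD99 is not given here. SLC25A24 also has a copy row, and both were at 0, while SLC25A26 had 648 counts on its own row and 0 on its copy. Of the 3431 genes with a copy row, 63.3% were at 0 on both, while 51.5% of all rows of the count table were at 0. TIMM22 and SMDT1, which belong to the mitochondrial machinery of most cells, were also at 0, so a 0 in this table is no proof of absence.

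No carrier passed the test at any concentration. All 35 detected carriers passed the filter on low counts and were tested among 12030 genes with edgeR's quasi-likelihood test, with Benjamini-Hochberg adjustment over all genes. In high against control 0 of 35 were called at an adjusted p below 0.05, against 0.0% of all genes, and the same 0 of 35 and 0.0% held for medium, for low, for any difference between the groups and for a trend over the ranked concentrations. With an unadjusted p below 0.05 there were 0 carriers in each of these, against 375 genes in high, 238 in medium, 339 in low, 210 for any difference and 348 for the trend. Without high replicate 2, the high library poorest in 16S RNA, 9 of 35 carriers had an unadjusted p below 0.05 in high against control. So had 2295 of the 12433 genes tested in that fit, and 0 of either were called. DESeq2 and limma voom called 0 carriers too, and 5 and 1 genes in high.

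High 3-MCA had 14 carriers estimated above control and 21 below. The median log2 fold change was -0.07 (0.00 over all genes) and the range -0.48 to 0.53. In medium 16 were above and 19 below, and the median was -0.02 (0.00 over all genes), the range -0.66 to 0.36. In low 14 were above and 21 below, and the median was -0.07 (0.01 over all genes), the range -0.63 to 0.42. The 3 comparisons share their control libraries. For 33 of 35 carriers in high, 33 in medium and 32 in low, the 95% interval lay within 1 log2 unit of 0 on either side, and all intervals included 0. The libraries were thus precise enough to bound most carriers within that distance of control, which does not show that levels were the same.

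**Figure D3:**
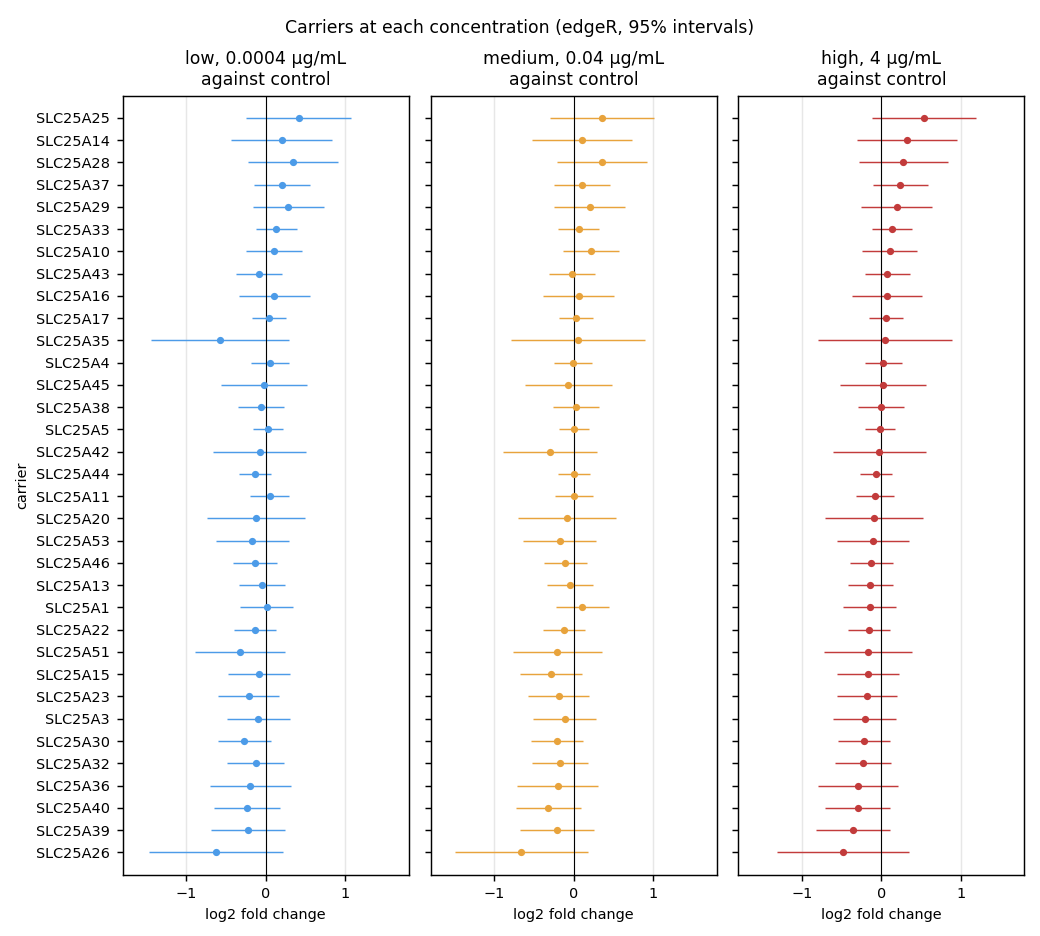
Log2 fold changes of 34 of the 35 tested carriers in low, medium and high against control, with 95% intervals from edgeR as bars and carriers ordered by their value in high. Each interval crosses 0.

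The carriers with the smallest p in high were SLC25A25, SLC25A39, SLC25A40, SLC25A37 and SLC25A30, each with an adjusted p of 0.810. SLC25A25 measured 33.1, 16 and 40.2 CPM in high, against 27.0, 20.4 and 16.8 in control. Among the high and control libraries, high held both its highest values and its lowest. Its log2 fold change of 0.53 ± 0.30 (95% interval -0.12 to 1.19) ran from 0.25 to 0.83 when single libraries were left out. SLC25A39 measured 118, 162 and 97.6 CPM in high, against 146, 178 and 179 in control, a log2 fold change of -0.36 ± 0.21 (interval -0.82 to 0.11; -0.60 to -0.20 with single libraries left out). Its groups overlapped. Without the 3 libraries richest in 16S RNA (low replicate 3, high replicates 1 and 3), an exclusion chosen after seeing the data, the values turned to -0.33 for SLC25A25 and 0.02 for SLC25A39, with 1 high library left.

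SLC25A40 measured 31.0, 36.6 and 24.9 CPM in high, against 37.9, 38.4 and 42.3 in control, and the groups did not overlap (log2 fold change -0.30 ± 0.19). SLC25A37 (mitoferrin 1) measured 51.2, 40.0 and 51.0 CPM in high, against 51.4, 36.3 and 37.6 in control, with overlap (0.24 ± 0.16). SLC25A30 measured 41.7, 46.1 and 38.8 CPM in high, against 50.2, 49.7 and 52.9 in control, without overlap (-0.21 ± 0.15). SLC25A22 was the third carrier without overlap, with 35.4, 39.7 and 37.1 CPM in high, against 43.9, 40.3 and 46.1 in control (-0.16 ± 0.12, adjusted p = 0.810). Of the 35 carriers 3 thus lay wholly below control in high and 0 wholly above, against 8.28% and 1.85% of all genes. With mitochondrial rows out of the library total only SLC25A30 remained below, against 4.01% of genes, and 0 carriers lay above, against 3.69%.

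None of the most abundant carriers passed the test. In high against control, SLC25A5 had a log2 fold change of -0.02 (interval -0.20 to 0.17, adjusted p = 0.953) and SLC25A11 -0.08 (-0.32 to 0.16, adjusted p = 0.827). SLC25A3 had -0.21 (-0.60 to 0.19, adjusted p = 0.810), SLC25A1 -0.14 (-0.48 to 0.19, adjusted p = 0.810) and SLC25A10 0.11 (-0.24 to 0.45, adjusted p = 0.834). The fitted values use a composition factor, so they can differ from the ratio of TPM means.

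In medium the carriers with the smallest p were SLC25A26, SLC25A40, SLC25A15, SLC25A28 and SLC25A10, each with an adjusted p of 0.998. SLC25A26, the S-adenosylmethionine carrier, measured 3.27, 3.87 and 4.27 CPM in medium, against 7.60, 5.38 and 5.57 in control, without overlap (log2 fold change -0.66 ± 0.38). SLC25A40 measured 28.2, 32.3 and 32.6 CPM in medium, also below every control library (-0.32 ± 0.19). The ornithine/citrulline carrier SLC25A15 measured 30.7, 42.2 and 41.7 CPM in medium, against 40.9, 53.5 and 49.0 in control, with overlap (-0.29 ± 0.18). SLC25A28 measured 45.5, 31.8 and 45.2 CPM in medium, against 41.5, 27.4 and 29.2 in control, with overlap (0.36 ± 0.26). For SLC25A10, 114, 99.4 and 123 CPM in medium stood against 117, 96.7 and 84.1 in control, with overlap (0.22 ± 0.16). In all, 7 carriers (SLC25A22, SLC25A23, SLC25A26, SLC25A30, SLC25A32, SLC25A40 and SLC25A51), of 35, lay wholly below control in medium, against 8.3% of all genes, and 0 lay above, against 3.26%. With mitochondrial rows out of the total, 6 lay below, against 5.74%, and 0 above, against 4.94%.

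In low the smallest p belonged to SLC25A30, SLC25A26, SLC25A35, SLC25A44 and SLC25A29, each with an adjusted p of 0.911. SLC25A30 measured 43.0, 49.5 and 31.5 CPM in low, below its control values (log2 fold change -0.27 ± 0.15), and SLC25A26 measured 5.35, 3.30 and 3.01 CPM, also below (-0.63 ± 0.38). SLC25A44 measured 45.3, 43.4 and 46.5 CPM in low, against 50.1, 55.4 and 46.8 in control, without overlap (-0.13 ± 0.09). SLC25A35 measured 2.73, 3.41 and 1.08 CPM in low, against 2.96, 2.96 and 4.98 in control (-0.58 ± 0.40), and SLC25A29 measured 10.1, 8.73 and 14.7 CPM in low, against 10.3, 9.29 and 8.86 in control (0.28 ± 0.20). Both overlapped. Thus 3 carriers lay wholly below control in low, against 4.99% of all genes, and 0 above, against 2.34%, while with mitochondrial rows out of the total 0 lay below, against 4.03%, and 0 above, against 3.28%.

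Over the ranked concentrations the smallest p belonged to SLC25A40, SLC25A39, SLC25A25, SLC25A32 and SLC25A36, each with an adjusted p of 0.854. Their log2 slopes per step were -0.10 ± 0.06 for SLC25A40, -0.11 ± 0.06 for SLC25A39, 0.15 ± 0.09 for SLC25A25, -0.07 ± 0.05 for SLC25A32 and -0.09 ± 0.07 for SLC25A36. SLC25A32 measured 109, 108 and 124 CPM in control, 103, 123 and 79.0 in low, 92.1, 105 and 99.9 in medium, and 87.7, 113 and 79.1 in high. SLC25A36 measured 63.0, 78.1 and 84.1 CPM in control, 68.6, 82.5 and 42.0 in low, 58.9, 69.1 and 63.6 in medium, and 54.9, 75.4 and 46.0 in high. For both, low replicate 3 and high replicate 3 were the lowest libraries. The groups of SLC25A36 overlapped, while medium lay wholly below control for SLC25A32 and its low and high libraries overlapped control.

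By role, no group of carriers had a called member in any comparison. In high the 13 tested carriers of cofactors, nucleotides, iron and glutathione split into 6 higher and 7 lower estimates, with the median at -0.03. Of the 6 amino acid carriers tested, 1 was above and 5 below, with a median of -0.10. The translocases SLC25A5 and SLC25A4 stood at -0.02 and 0.03, and the 3 carboxylate carriers had a median of -0.08 (range -0.14 to 0.11).

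Many carriers moved with the 16S RNA share of the library within groups. A slope on the log2 share, fitted with edgeR beside the group term and added after seeing the data, was called for 23 of 35 carriers (65.7%), against 48.5% of all genes. Of these, 14 were lower in libraries with more 16S RNA, against 24.2% of genes, and 9 were higher, against 24.4%. Per doubling of the share SLC25A36 changed by -0.32 ± 0.03 on the log2 scale (adjusted p = 2.97e-06), SLC25A39 by -0.29 ± 0.03 (8.15e-06), SLC25A32 by -0.21 ± 0.03 (1.05e-05), SLC25A23 by -0.23 ± 0.03 (1.40e-05) and SLC25A3 by -0.23 ± 0.03 (8.02e-05). In the other direction SLC25A25 changed by 0.42 ± 0.05 (8.14e-06) and SLC25A28 by 0.32 ± 0.06 (3.40e-04). SLC25A5 had -0.03 ± 0.03 and was not called (adjusted p = 0.325). Other called carriers were SLC25A1, SLC25A13, SLC25A15, SLC25A20, SLC25A30, SLC25A40, SLC25A46, SLC25A51 and SLC25A53, all lower, and SLC25A4, SLC25A10, SLC25A14, SLC25A17, SLC25A33 and SLC25A37, all higher. What lies behind the 16S share was not tested.

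**Figure D4:**
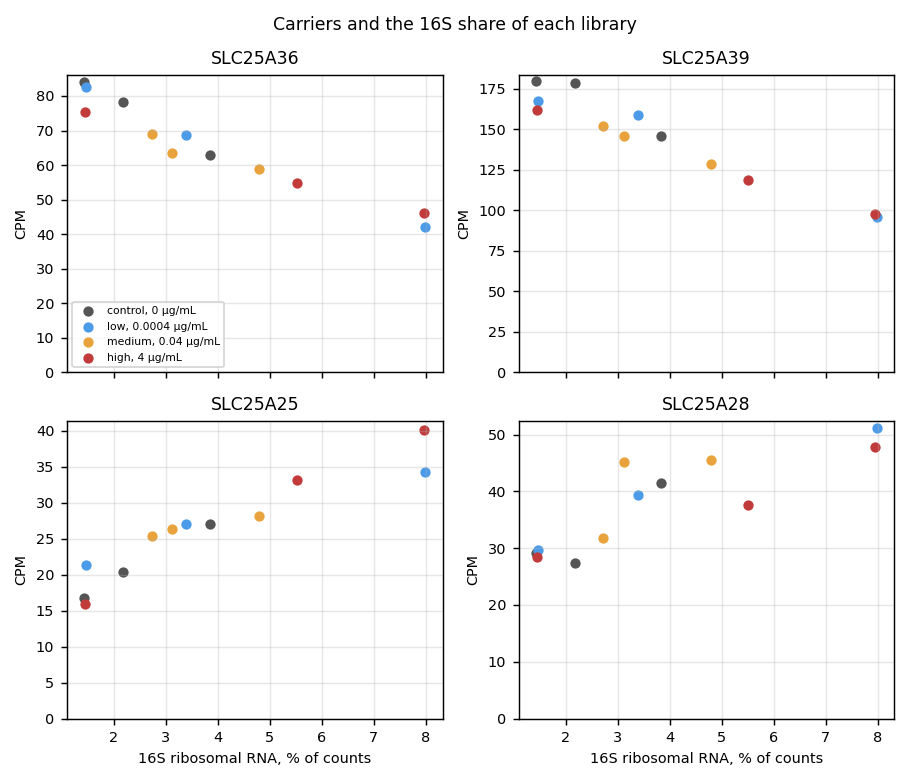
CPM of SLC25A36, SLC25A39, SLC25A25 and SLC25A28 (linear axes from 0) against the percent of counts on 16S ribosomal RNA, with 1 point per library coloured by concentration. The libraries with 7.99% and 7.96% hold the lowest values of SLC25A36 and SLC25A39 and the highest of SLC25A25 and SLC25A28.

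Relatives of the family under other symbols, and genes that work with the carriers, were called in no comparison either. In control the uncoupling protein UCP2, a family member abundant in immune cells, averaged 160 ± 11.4 TPM, and MTCH1, an outer membrane relative, 60.4 ± 2.54 TPM. UCP2 had a log2 fold change of -0.13 ± 0.18 in high against control and MTCH1 -0.13 ± 0.11. Of the 9 tested genes of the TIM22 import pathway, 5 were above and 4 below control in high (median 0.02), and the smallest p belonged to TIMM29 (0.27 ± 0.15) and TIMM13 (-0.29 ± 0.16). For the pyruvate carrier and sideroflexins 1 of 6 was above and 5 below (median -0.16), with MPC1 at 0.19 ± 0.12 and SFXN2 at -0.25 ± 0.20. Of the 3 voltage-dependent anion channels 1 was above and 2 were below (median -0.02), and of 6 calcium uniporter genes 4 were above and 2 below (median 0.02).

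Of 8 enzymes of the malate-aspartate shuttle and citrate metabolism, 2 were above and 6 below control in high (median -0.09). Of 16 genes of heme and iron-sulfur synthesis 7 were above and 9 below (median -0.11), and of 6 tested mitochondrial one-carbon enzymes 1 was above and 5 below (median -0.16). Called genes numbered 0 in each of these lists, with 0 at an unadjusted p below 0.05 in high.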

How the data were processed

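Polyadenylated RNA of TK6 cells was sequenced in paired reads of 150 nt, per the labels' protocols. The build GRCh38.p14 and the tools HISAT2 2.2.1, featureCounts 2.0.6, MultiQC 1.27 and fastp 0.23.4 are named in the submitters' processing notes without their roles; the use of strand and of reads with several alignments is not given there. The authors deposited unscaled counts per gene for 12 libraries, with exon lengths. They also deposited CPM per library, which equalled the count over the library total within 5e-05 CPM, and 51 of whose gene names differ, so names came from the count table. Of the values from 1 to 10, 68.7% were even, which counting the reads of a pair separately would leave, though this was not tested.

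TPM was computed here from the counts and exon lengths. Genes kept by filterByExpr (12030) were fitted with edgeR 4.0.16 (R 4.3.3; TMM factors, glmQLFit and glmQLFTest, 12 libraries, 8 residual degrees of freedom), and calls were made at an adjusted p below 0.05. Intervals (95%) use the fitted standard errors. The calling of genes in high against control was tried on simulated counts, while the coverage of the intervals was not tested. Windows of 150 bases were compared between transcripts of GENCODE v29, and promoters are from RefSeq. Intervals and floors cover counting error and the spread between libraries only. The text gives values in every library for the 6 carriers highest in control, the 5 of smallest p per contrast and those whose high and control libraries do not overlap, and at most 2 members of each list. Members and lists were chosen with earlier results of these data known. Alternatives were DESeq2 1.42.0, limma voom (limma 3.58.1), other scaling and filters, only the groups compared, a replicate block and each library left out. No 2 libraries of the same group were duplicates, and pairs from different groups were not checked for this. The slope on the 16S share, the sums with copy rows, the totals without mitochondrial rows, the count of non-overlapping groups in TPM, the exclusion of 3 libraries and the printed promoters were chosen after seeing the data. The counts over the family include 1 carrier that is not reported here by name.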

Additional observations from a re-analysis of the deposited data

Results flagged for a closer look

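The row of SLC25A6 on Y, which enters no comparison of the numbered rows, measured 60.6 CPM in high replicate 2, above the highest control library at 11.7 CPM. The copy row of SLC25A12 measured 24.5 CPM in high replicate 3, above the highest control library at 11.6 CPM. Both were singled out because they hold signal outside the rows that define the family, above the control level. The library named for each row was picked as the highest of all treated libraries, a choice which by itself favours a value above control. These 2 values are therefore no test of a difference, and the other libraries of both rows are given further up. The Y rows of the pseudoautosomal genes ASMTL and CD99 also ranged widely, as given there.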

How the results depend on the processing

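The number of carriers called at a concentration was 0 under every alternative run. Counts of all genes called, 0 in each comparison, were 2, 1, 1, 5 and 1 with the 16S share as covariate (high, medium, low, any difference and trend), 5, 7, 4, 17 and 1 with DESeq2, and 4, 7, 3, 35 and 1 with no filter on low counts. Voom called 1 in high, medium and any difference. Fits on only the groups compared called 6 in medium and 1 in low, and the fit with no composition factor 1 for any difference. Without the 3 libraries richest in 16S RNA the counts were 3, 3, 1, 5 and 1, and this setting turned SLC25A25 to -0.33 and SLC25A39 to 0.0231 in high; it leaves 1 high library, assumed to vary like the others, and the cause was not tested. With single libraries left out, genes called ranged from 0 to 2 in high, medium and low, 0 to 4 for any difference and 0 to 0 for the trend. Summed carrier TPM then ranged from 2220 to 2334 for control, from 2022 to 2251 for low, from 2084 to 2107 for medium and from 1927 to 1998 for high. With mitochondrial rows left out of the denominator the sums were 3469, 3416, 3394 and 3373 TPM, since the denominator is smaller by construction.

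The slope on the 16S share was called for 18 to 23 carriers and 4582 to 5876 genes with single libraries left out. With a replicate block it was called for 16 carriers and 4044 genes, and the block gave 2 genes for any difference and left the other counts of genes called at 0. Same-numbered libraries had correlations of their deviations from -0.43 to 0.63, and 6 of 12 libraries correlated best with their own number. These values do not decide whether same-numbered libraries belong together. The labels state no such design, so the numbers were not used to pair samples in the main fit. The numbered rows of 13 carriers held few or no counts and did not pass the filter, so they were tested only with no filter, with DESeq2 or with copy rows added, where counts allowed.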
